A study of Mus musculus with 6 samples.

Results

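The BCL2 family sets whether the outer mitochondrial membrane of a cell stays intact. Survival proteins such as BCL2, BCL-xL (gene Bcl2l1) and MCL1 hold in check the pore-forming effectors BAX and BAK (gene Bak1). The BH3-only proteins, which share a single short helix with the rest of the family, respond to stress and either activate the effectors or occupy the survival proteins. In the mammary gland the family is known for its part in the clearing of the lumen during duct formation and in the loss of alveoli after weaning.

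The 10 genes examined here were the survival genes Bcl2, Bcl2l1 and Mcl1, the effector genes Bax and Bak1, and the BH3-only genes Bcl2l11 (BIM), Bbc3 (PUMA), Pmaip1 (NOXA), Bid and Bad. They were chosen by name as members of the family, out of 19893 gene symbols with a count in every library, and each was represented by its transcript with the highest mean count. All 10 were found and all 10 passed the filter on low counts. RNA came from 3 early lesion (EL) and 3 primary tumour (PT) sphere cultures of MMTV-Neu mice on the FvB background, which express a rat ErbB2 (Neu) oncogene in mammary epithelium under a viral mammary promoter. Donors of EL spheres were 14 to 18 weeks old and had no tumour that could be felt, and donors of PT spheres were past 20 weeks and bore tumours. Both groups carry the transgene, both were kept for 7 days on low-adhesion plates in mammosphere medium, and both are labelled as breast cancer cells. A tissue label of the EL samples names lung beside mammary. Separate mice behind the 3 replicates are not mentioned in the labels, so p-values reflect the spread between libraries alone, and this spread may be technical.

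Total counts over transcripts ran from 69759793 to 85126630 per library, the lowest from a table of EL replicate 1 that breaks off before its end. The spheres hold more than epithelium. All 8 epithelial markers were called higher in PT, with a summed level of 2424 to 2481 CPM in EL and 8540 to 8929 in PT. All 8 fibroblast markers were called lower (summed 62241 to 66623 CPM in EL, 618 to 740.3 in PT), and so were all 8 endothelial markers (244 to 264 and 5.6 to 6.0 CPM). None of the epithelial, fibroblast or endothelial markers was at 0 throughout a group. Of 7 macrophage markers with a count in every library, 6 were called higher (summed 59.9 to 77.1 and 150 to 172 CPM). Of 8 lymphocyte markers only Ptprc passed the count filter (summed 7.03 to 12.2 and 10.9 to 13.7 CPM), and Cd3e, Cd3g and Ms4a1 were at 0 in every PT library. All 8 proliferation markers were called lower in PT (summed 286 to 321 and 107 to 116 CPM). The part of these shifts in the results on the BCL2 family was not tested, and in such bulk samples fewer cells of a type and less RNA per cell cannot be told apart.

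The promoters of the 4 members that rose most, Bcl2l1, Bcl2, Bid and Bcl2l11, are shown because these genes were higher together in PT spheres. Each is the stretch of 250 bases before the RefSeq start site that lies nearest to the start of the counted transcript, at most 51 bases from it, in the GRCm38.p6 assembly (mm10). Positions are Bcl2l1 at chr2:152830718-152830967 on the minus strand, Bcl2 at chr1:106714291-106714540 on the minus strand, Bid at chr6:120916825-120917074 on the minus strand and Bcl2l11 at chr2:128125788-128126037 on the plus strand. Capitals mark matches, on either strand, to any of 7 motifs.
Bcl2l1: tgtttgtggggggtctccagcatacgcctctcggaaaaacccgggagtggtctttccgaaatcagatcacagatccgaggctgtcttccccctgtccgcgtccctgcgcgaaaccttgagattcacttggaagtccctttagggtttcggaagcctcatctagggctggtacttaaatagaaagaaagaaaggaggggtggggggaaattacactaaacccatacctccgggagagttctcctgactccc
Bcl2: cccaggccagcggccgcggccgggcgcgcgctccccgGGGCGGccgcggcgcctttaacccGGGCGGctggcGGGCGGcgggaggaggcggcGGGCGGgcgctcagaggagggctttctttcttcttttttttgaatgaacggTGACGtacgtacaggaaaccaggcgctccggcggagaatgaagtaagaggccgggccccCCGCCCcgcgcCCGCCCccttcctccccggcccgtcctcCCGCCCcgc
Bid: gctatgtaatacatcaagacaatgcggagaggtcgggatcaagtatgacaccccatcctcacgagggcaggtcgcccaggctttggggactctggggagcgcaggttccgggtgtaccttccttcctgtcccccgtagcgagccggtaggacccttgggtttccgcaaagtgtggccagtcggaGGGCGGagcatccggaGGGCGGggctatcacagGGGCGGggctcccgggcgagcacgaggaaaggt
Bcl2l11: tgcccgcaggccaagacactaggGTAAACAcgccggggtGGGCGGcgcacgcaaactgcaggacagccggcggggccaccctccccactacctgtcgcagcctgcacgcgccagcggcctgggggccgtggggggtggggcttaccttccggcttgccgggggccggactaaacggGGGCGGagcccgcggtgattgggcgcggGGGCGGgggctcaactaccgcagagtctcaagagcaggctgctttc
The motifs searched were the FOXO motif TGTTTAC, the E-box CACGTG, the cAMP response element TGACGTCA and the TGACG contained in it, the STAT motif TTCNNNGAA, the C/EBP-ATF motif TGATGNAAT and the GC box GGGCGG. The Bcl2 window held 7 GC boxes and 1 TGACG. The Bid window held 3 GC boxes, and the Bcl2l11 window held 3 GC boxes and 1 FOXO motif, at positions -227 to -221 counted from the start site. The Bcl2l1 window held none of the 7 motifs. That window lies inside the annotated span of the gene, which reaches 152833803, and the counts do not show which start site is used. Over 32851 mouse promoter windows of the same length, 32.74% held a GC box, 17.77% TGACG and 3.17% the FOXO motif. The share of G and C was 74.8% for Bcl2, 72.0% for Bcl2l11, 63.6% for Bid and 53.2% for Bcl2l1, against a median of 52.4% over all windows. GC boxes were not particular to the members that rose most. Among windows not printed here, Bbc3 held 5, Bad 3, Bax 2, Mcl1 1 and Bak1 none. The start site used for Bak1 lies 382 bases from the start of its counted transcript, and a window of Pmaip1 is not reported here. The share of G and C was 62.8% for Bad, which was lower in PT, and 76.4% for Bbc3. A match, or its lack, describes the letters of these windows and says nothing of whether a factor binds.

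In PT spheres, transcripts of Bcl2 and Bcl2l1 stood at 2.60 and 2.66 times their EL level, Bid and Bcl2l11 at 1.88 and 1.86 times, and Pmaip1 at 0.0847 times. Expression is given as CPM, counts divided by library size after scaling with trimmed means of M-values (TMM). edgeR's quasi-likelihood test, with adjustment over 13844 tested genes and a threshold of 0.05, called all 10 members, 7 higher and 3 lower in PT. It called 80.7% of all tested genes, 39.9% higher and 40.8% lower. EL and PT libraries were fully apart for all 10 members, as they were for 82.7% of all genes. Against a minimum of 2-fold, 3 members were called, Bcl2 and Bcl2l1 higher and Pmaip1 lower, where 24.6% of all genes were called, 7.3% higher and 17.3% lower. The median log2 fold change (FC, PT minus EL, given ± its standard error, SE) of the members was 0.45, against 0.00 over all tested genes, and the median absolute value was 0.75 against 0.45. With library totals alone in place of TMM factors, 8 members were called higher and 1 lower, while 65.8% instead of 49.5% of all called genes were higher and the median over all genes was 0.25.

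**Figure D1:**
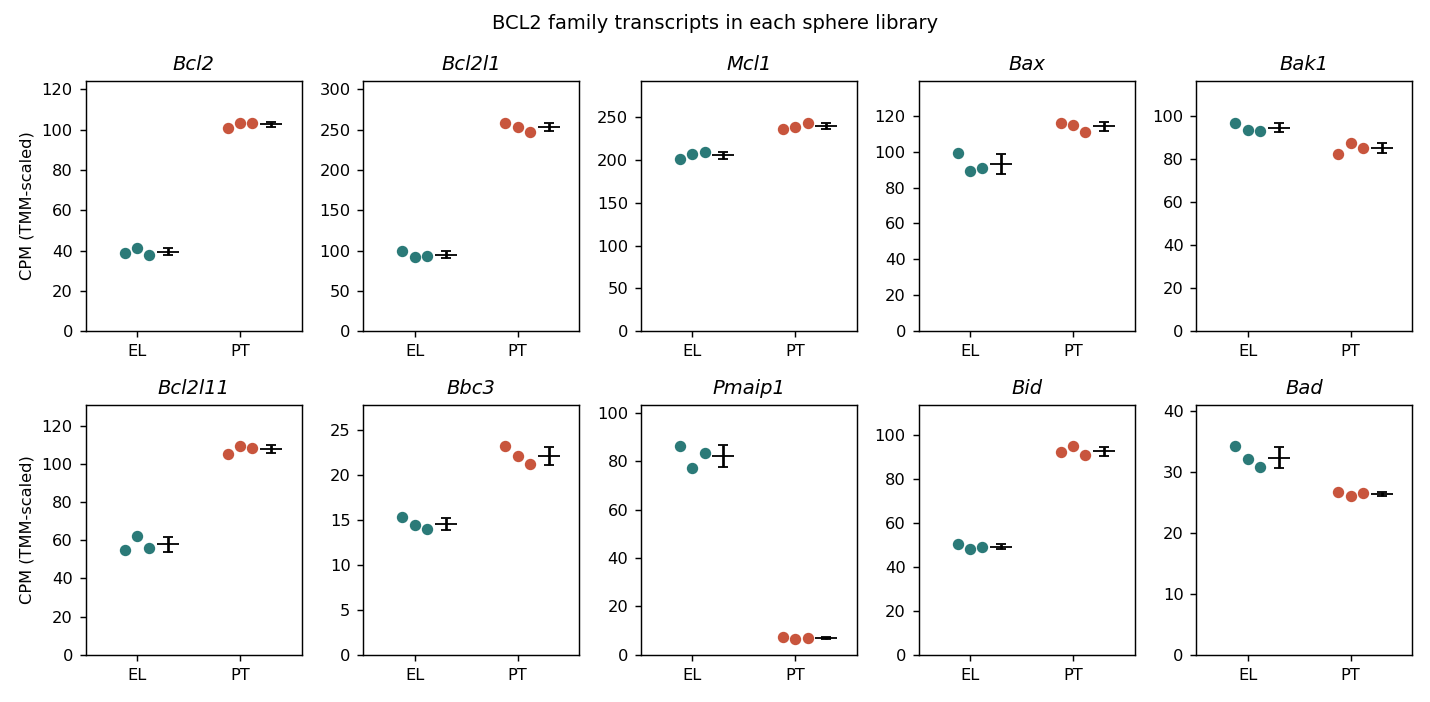
CPM of each BCL2 family gene in the 3 EL and 3 PT sphere libraries (points, 1 panel per gene, linear axis from 0), with the group mean and SD beside them (bars). Groups are apart in every panel, with the largest ratio between group means for Pmaip1 (77.3 to 86.1 CPM in EL, 6.67 to 7.27 in PT) and a narrow gap for Bak1 (93.4 to 97.1 and 82.7 to 87.5 CPM).

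Among the survival genes, Bcl2 and Bcl2l1 rose by similar amounts and Mcl1 by much less. Bcl2 (chromosome 1, 106538176 to 106714290) was at 39.0, 41.4 and 37.9 CPM in EL replicates 1 to 3 and at 101, 103 and 103 in PT replicates 1 to 3. The PT libraries lay together at a level well above all EL libraries, with means of 39.4 ± 1.81 and 102.5 ± 1.40 CPM (SD, n = 3 each) and a log2 FC of 1.38 (± 0.04 SE; adjusted p = 1.51e-12). Of the counted Bcl2 transcript, 7.8% is shared with D630008O14Rik on the opposite strand, where reads cannot be assigned to 1 gene. Bcl2l1 (chromosome 2, 152758732 to 152833803), which encodes the BCL-xL protein that epithelial cells commonly depend on, was at 99.6, 91.6 and 93.8 CPM in EL and at 258.5, 253 and 248 in PT. Its log2 FC of 1.41 (± 0.04 SE; adjusted p = 6.89e-13) was higher than that of 94.5% of tested genes, and that of Bcl2 than 94.2%. The 8 epithelial markers had a median log2 FC of 1.8, from 1.28 (Epcam) to 2.52 (Cldn4). Mcl1 (chromosome 3, 95656944 to 95663179), whose protein is short-lived and must be made steadily, was at 201, 207 and 209 CPM in EL and at 236.5, 239 and 243.5 in PT. All PT libraries were above all EL libraries, but the step was small, with a log2 FC of 0.22 (± 0.03 SE; adjusted p = 1.67e-05). Neither Mcl1 nor any member other than Bcl2, Bcl2l1 and Pmaip1 was called against the 2-fold minimum.

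The effector genes moved little. Bax (chromosome 7, 45461695 to 45466903), whose protein moves from the cytosol into the mitochondrial membrane, was at 99.2, 89.2 and 90.9 CPM in EL and at 116, 115 and 111 in PT. The lowest PT library stood above the highest EL library, and the log2 fold change was 0.29 (± 0.04 SE; adjusted p = 2.13e-05). Bak1 (chromosome 17, 27019812 to 27028627), whose protein already resides in that membrane, was at 97.1, 93.7 and 93.4 CPM in EL and at 82.7, 87.5 and 85.2 in PT. Its log2 fold change was -0.15 (± 0.03 SE; adjusted p = 9.85e-04) with TMM factors and 0.09 (adjusted p = 0.0232) with library totals, so its direction depends on the scaling. Part of the counted exons of both genes is shared with another gene, 22.1% of the Bax transcript with Gm45808 on the same strand and 25.7% of the Bak1 transcript with Ggnbp1 on the opposite strand. As the strand setting of the counting is not given, reads there cannot be assigned to 1 gene.

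**Figure D2:**
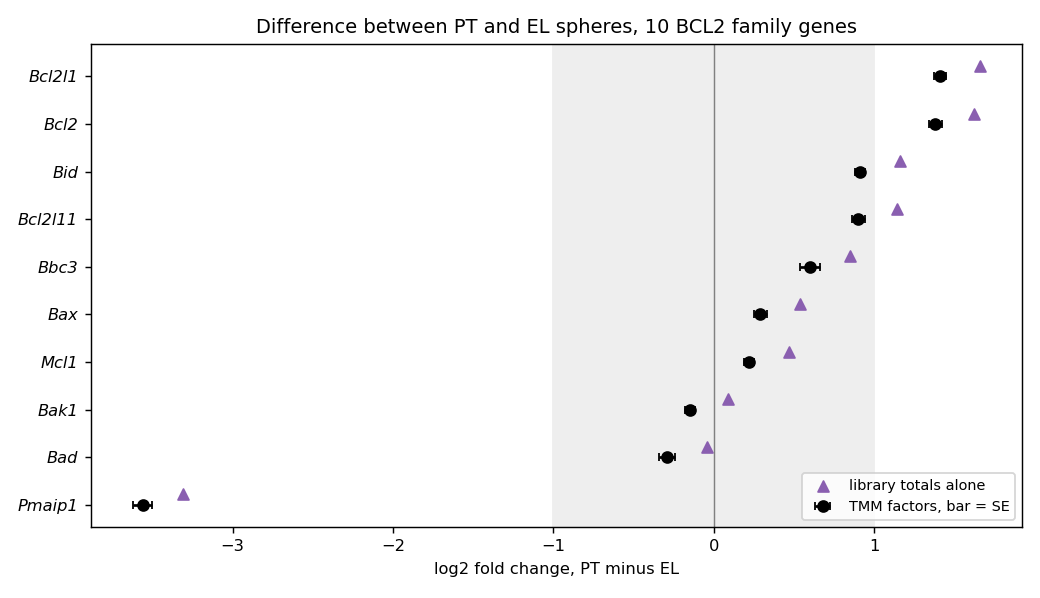
Log2 fold change, PT minus EL, of the 10 genes with TMM factors (circles, bars are SE) and with library totals alone (triangles), with the range below 2-fold shaded. With TMM factors Bcl2l1 (1.41), Bcl2 (1.38) and Pmaip1 (-3.56) lie outside the shading; library totals move all values to the right and take Bak1 across 0.

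The BH3-only genes went both ways, with 3 called higher and 2 lower, or 3 and 1 with library totals. Pmaip1 (chromosome 18), a p53 target whose product NOXA binds mainly to MCL1, was at 86.1, 77.3 and 83.4 CPM in EL and at 7.27, 6.67 and 6.97 in PT. The groups were an order of magnitude apart, and no library was intermediate. It fell 11.8-fold, from 82.3 ± 4.50 to 6.97 ± 0.303 CPM (SD, n = 3 each; log2 FC -3.56 ± 0.06 SE; adjusted p = 5.09e-15), and 7.94% of tested genes had a log2 fold change as low or lower. The fibroblast and endothelial markers fell further, with medians of -6.58 for each list.

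Bcl2l11 (chromosome 2, 128126038 to 128162547), which encodes BIM, a strong activator that binds every survival protein of the family, rose from 55.1, 62.3 and 56.2 CPM in EL to 105, 109 and 108.5 in PT (log2 FC 0.90 ± 0.04 SE; adjusted p = 5.44e-10). Bid (chromosome 6, 120893119 to 120917062), whose protein carries the death receptor signal to mitochondria once caspase-8 has cut it, rose from 50.3, 48.2 and 49.1 CPM to 92.1, 94.6 and 90.7 (log2 FC 0.91 ± 0.03 SE; adjusted p = 3.62e-11). Both genes thus changed by nearly the same factor, with all PT libraries above all EL libraries. With library totals both passed the 2-fold minimum as well (log2 fold changes 1.14 and 1.16).

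Bbc3 (chromosome 7, 16308398 to 16318334), the gene of the p53 target PUMA, was at 15.3, 14.4 and 14.0 CPM in EL and at 23.1, 22.04 and 21.2 in PT, with a log2 FC of 0.60 (± 0.06 SE; adjusted p = 5.45e-07). Bbc3 and Pmaip1, both known targets of p53, thus moved in opposite directions. Trp53 itself, the gene of p53, averaged 121 CPM in EL libraries and 139 in PT libraries (log2 FC 0.20 ± 0.04 SE). Bad (chromosome 19, 6941861 to 6951905), whose protein is held inactive when survival kinases phosphorylate it, was at 34.2, 32.1 and 30.8 CPM in EL and at 26.7, 26.1 and 26.5 in PT. The lowest EL library stood above the highest PT library, with a log2 FC of -0.29 (± 0.05 SE; adjusted p = 9.04e-05), but with library totals the value was -0.04 and was not called (adjusted p = 0.406). Of the counted Bad transcript, 35.6% is shared with Gpr137 on the opposite strand.

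Divided by transcript length, so that genes can be compared with each other, the order of levels differed between the groups. In EL spheres Bax was highest at 107 ± 6.15 CPM per kb (SD, n = 3), followed by Mcl1 at 60.2 ± 1.24, Bak1 at 39.7 ± 0.846, Bcl2l1 at 37.0 ± 1.62 and Pmaip1 at 30.2 ± 1.65 CPM per kb. Bcl2l11 (23.2 ± 1.55), Bid (22.5 ± 0.498) and Bad (22.3 ± 1.18 CPM per kb) came next and overlapped between libraries, and Bbc3 (8.03 ± 0.364) and Bcl2 (5.49 ± 0.251 CPM per kb) were lowest. In PT spheres Bax again led at 132 ± 2.98 CPM per kb, but Bcl2l1 was second at 98.6 ± 2.11, ahead of Mcl1 at 70.1 ± 1.046. Bcl2l11 (43.2 ± 0.834) and Bid (42.3 ± 0.906 CPM per kb), whose ranges overlapped, stood above Bak1 (35.7 ± 0.988), Bad (18.2 ± 0.223), Bcl2 (14.3 ± 0.195) and Bbc3 (12.2 ± 0.542 CPM per kb). Pmaip1, in the middle of the EL order, was last in PT at 2.56 ± 0.111 CPM per kb. Other neighbours in either order did not overlap between libraries.

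**Figure D3:**
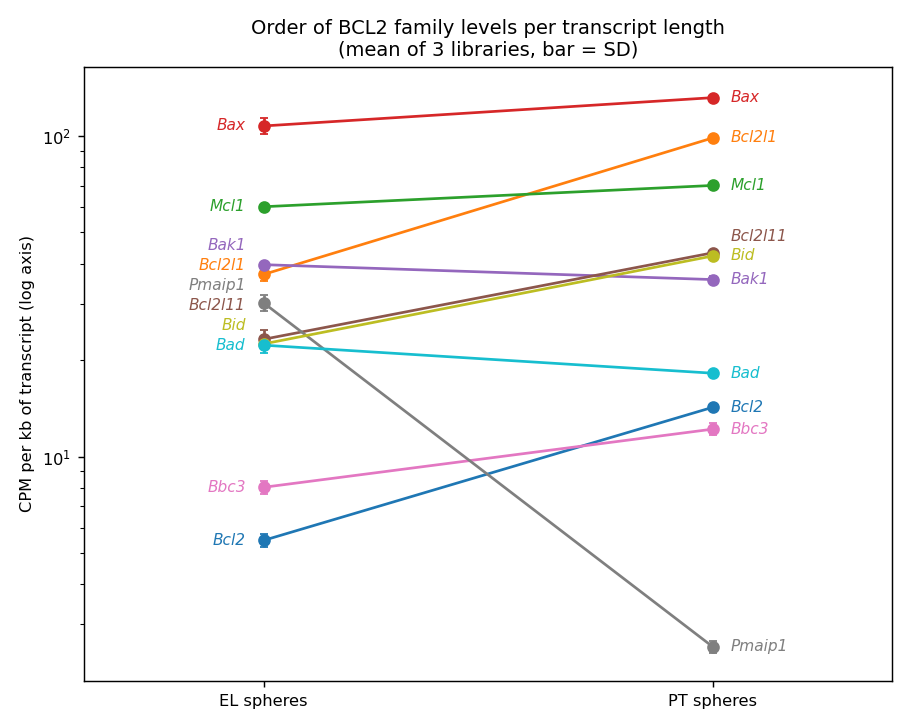
Mean CPM per kb of transcript (log axis) of each gene in EL and PT spheres, with SD over 3 libraries and a line joining the groups. Bcl2l1 passes Mcl1 (37.0 to 98.6 against 60.2 to 70.1 CPM per kb), and Pmaip1 goes from the middle of the order to its end.

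Ratios between members within a library do not depend on how libraries are scaled to each other. The log2 ratio of Bax to Bcl2 per transcript length was 4.40, 4.16 and 4.31 in EL and 3.25, 3.21 and 3.16 in PT. The log2 ratio of Bax to Bcl2l1 was 1.56, 1.53 and 1.52 in EL and 0.41, 0.43 and 0.41 in PT, so that Bax transcripts exceeded Bcl2l1 transcripts 2.90-fold in EL and 1.33-fold in PT. Bax transcripts were thus lower relative to those of Bcl2 and of Bcl2l1 in every PT library, while Bax itself was higher there. Bax to Mcl1 was not among the pairs examined, and those genes rose by similar amounts (log2 FC 0.29 and 0.22). The log2 ratio of Bad to Bcl2l1 went from -0.73 ± 0.05 to -2.44 ± 0.03 (SD, n = 3 each). The ratio of Pmaip1 to Mcl1, its main partner, showed the widest gap of the 9 pairs, with log2 values of -0.90, -1.09 and -1.0 in EL and -4.70, -4.84 and -4.80 in PT, a 13.8-fold drop. The ratio of Bcl2l11 to Mcl1 went the other way, from -1.37 ± 0.09 to -0.70 ± 0.02 on the log2 scale (SD, n = 3 each). Pro-apoptotic genes therefore did not share a direction relative to Mcl1.

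The ratio of Mcl1 to Bcl2l1 changed sign, from 0.70 ± 0.09 in EL to -0.49 ± 0.05 in PT on the log2 scale (SD, n = 3 each). That of Bbc3 to Bcl2 went from 0.55 ± 0.09 to -0.23 ± 0.08, and that of Bak1 to Bax from -1.43 ± 0.05 to -1.88 ± 0.06. The ratio of Bcl2l1 to Bcl2 was the exception, at 2.75 ± 0.11 in EL and 2.79 ± 0.05 in PT with overlapping libraries (exact two-sided permutation p = 0.8). The groups did not overlap for the other 8 pairs, each at p = 0.1 in that exact test, the smallest it allows with 3 libraries against 3. Such separation was common, as 82.7% of all tested genes were themselves apart between the groups. Ratios of other gene pairs were not examined.

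**Figure D4:**
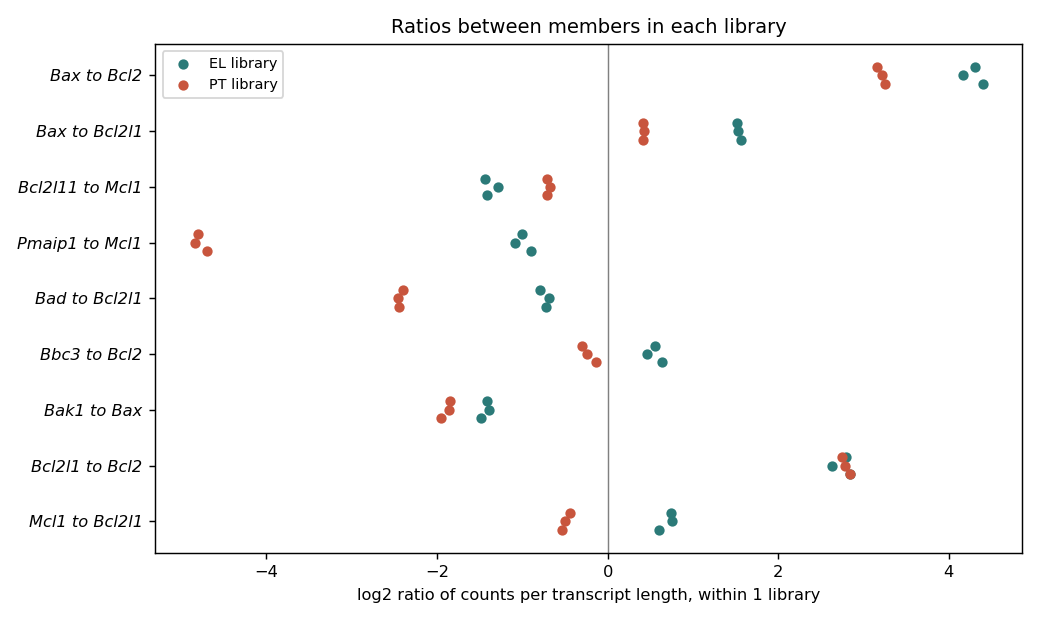
Log2 ratio of counts per transcript length between pairs of members in each EL and PT library (points; 0 means equal levels). EL and PT libraries are apart in 8 of 9 pairs, furthest for Pmaip1 to Mcl1 (means -1.0 and -4.78), and overlap for Bcl2l1 to Bcl2. Of all tested single genes, 82.7% were apart.

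Other genes of the apoptosis pathway were taken from 7 lists with 90 genes, of which 87 passed the count filter. Of these, 36 were called higher, 34 lower and 17 were not called, with a median log2 fold change of -0.01, and 54 higher against 23 lower with library totals. Without a minimum fold, the pathway as a whole was therefore called about as often as all genes (70 of 87, against the 80.7% given above), in both directions. Against the 2-fold minimum 5 were higher and 9 lower. These 14 of 87 are a smaller share than the 24.6% of all genes called there (7.3% higher and 17.3% lower).

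The less studied BCL2 relatives held the 2 highest log2 FC values of these 87 genes. Of 14 tested, 7 were called higher and 5 lower, with a median of 0.66, or 9 and 5 with library totals. Bcl2l14 (BCL-G) rose from 3.46 ± 0.523 to 30.2 ± 0.596 CPM (SD, n = 3 each; log2 FC 3.12 ± 0.08 SE), and the BH3-only gene Bik from 7.20 ± 0.804 to 37.5 ± 3.00 CPM (log2 FC 2.38 ± 0.08 SE). Bmf, a BH3-only gene linked to loss of attachment and named here after its values were seen, rose from 31.0, 28.4 and 29.2 CPM to 78.2, 88.3 and 83.4 (log2 FC 1.5 ± 0.05 SE). Bnip3, a mitochondrial protein gene induced by hypoxia, fell from 113 ± 20.3 to 17.3 ± 0.970 CPM (log2 FC -2.71 ± 0.11 SE), and its EL libraries were spread widely, at 89.9, 128 and 120.4 CPM. Bok, a relative of the effectors, fell from 12.3 ± 0.857 to 2.11 ± 0.0755 CPM (log2 FC -2.54 ± 0.10 SE). Bcl2l2 (BCL-W), a further survival gene named after its values were seen, fell from 92.7 ± 2.31 to 60.1 ± 0.638 CPM (SD, n = 3 each), against the direction of Bcl2, Bcl2l1 and Mcl1. The Bcl2a1 genes are near-identical copies, so the calls for Bcl2a1a, Bcl2a1b and Bcl2a1d (log2 fold changes 1.03, 0.71 and 0.89) are uncertain.

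Downstream of the mitochondria, 4 apoptosome and caspase genes were called higher and 6 lower of 13, a balance that turned to 8 and 3 with library totals. Apaf1, the scaffold that cytochrome c triggers to activate caspase-9, fell from 47.6 ± 2.90 to 17.9 ± 0.866 CPM (SD, n = 3 each; log2 FC -1.41 ± 0.05 SE). Htra2, a mitochondrial protease that can leave with cytochrome c, had a log2 FC of -0.66 (± 0.05 SE). The nuclease gene Dffb had a log2 FC of 0.39 (± 0.10 SE). Among 7 tested inhibitors of apoptosis 2 rose and 2 fell, or 4 and 1 with library totals. Birc5 (survivin), which also serves in cell division, had a log2 FC of -1.69 (± 0.10 SE) and fell beside the 8 proliferation markers (median -1.59); Naip2 and Birc2 rose by 0.58 and 0.34, and Birc3 was at -0.18 with TMM factors and 0.07, not called, with library totals.

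Of 10 tested death receptor genes 3 were called higher and 5 lower, or 5 and 4 with library totals. The receptor gene Fas rose from 9.21, 9.14 and 9.84 CPM in EL to 25.1, 25.4 and 25.3 in PT (log2 FC 1.43 ± 0.05 SE), while Tnfsf10 (TRAIL) and Tnfrsf1a, the main TNF receptor gene, had log2 FC values of -1.24 (± 0.08 SE) and -1.05 (± 0.03 SE). Tnfrsf10b, the TRAIL receptor gene, rose by 0.23 (± 0.05 SE). Casp8, the gene of the caspase that cuts BID, is named here after its values were seen and fell from 68.2 ± 3.02 to 41.0 ± 1.52 CPM (SD, n = 3 each). Fasl, the ligand of Fas, had 2 counts over the EL libraries and was at 0 in PT.

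Among transcription factors known to act on BCL2 family genes, 6 were called higher and 6 lower of 13, or 7 and 5 with library totals. Trp73 and Trp63, relatives of p53 that can act on Bbc3 and Pmaip1, had log2 FC values of -4.56 (± 0.44 SE) and -2.34 (± 0.10 SE), from 0.945 ± 0.0226 to 0.0382 ± 0.0331 CPM and from 11.1 ± 0.891 to 2.19 ± 0.194 CPM (SD, n = 3 each). Trp63 is also a marker of basal epithelium. Rela, a subunit of NF-kB, and Stat5a, which carries the prolactin signal, rose by 0.74 (± 0.03 SE) and 0.71 (± 0.06 SE). The FOXO genes Foxo1 and Foxo3, known activators of Bcl2l11 and named here after their values were seen, rose by 0.34 (± 0.05 SE) and 0.50 (± 0.04 SE). Ddit3 (CHOP), a stress factor also named after its values were seen, fell from 44.4 ± 3.35 to 19.1 ± 0.941 CPM (SD, n = 3 each).

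Genes acting on the stability and phosphorylation of BCL2 family proteins were called higher in 9 and lower in 7 of 20, or in 13 and 5 with library totals. Fbxw7, part of a ligase that marks MCL1 for destruction, rose from 36.8 ± 1.76 to 80.3 ± 3.20 CPM (SD, n = 3 each; log2 FC 1.12 ± 0.04 SE). Rps6ka1, a kinase that phosphorylates BAD, rose from 62.1 ± 0.886 to 126.5 ± 1.32 CPM (log2 FC 1.03 ± 0.03 SE). Of the other kinase genes listed, Akt1 (-0.23), Akt2 (-0.36), Pim1 (-0.50) and Mapk9 (-0.40) were called lower and Pim2 (0.44) higher with TMM factors. With library totals Akt1 was no longer called lower. Pim3 and Mapk8 were not called. The 14-3-3 genes Sfn and Ywhag, whose family holds phosphorylated BAD in the cytosol, had log2 FC values of -0.99 (± 0.06 SE) and -0.69 (± 0.03 SE). Ywhaq (0.66), Ywhah (0.41), Ywhae (0.27) and Ywhaz (0.19) of the same family were called higher, and Ywhab was not called. Protein levels and phosphorylation were not measured.

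**Figure D5:**
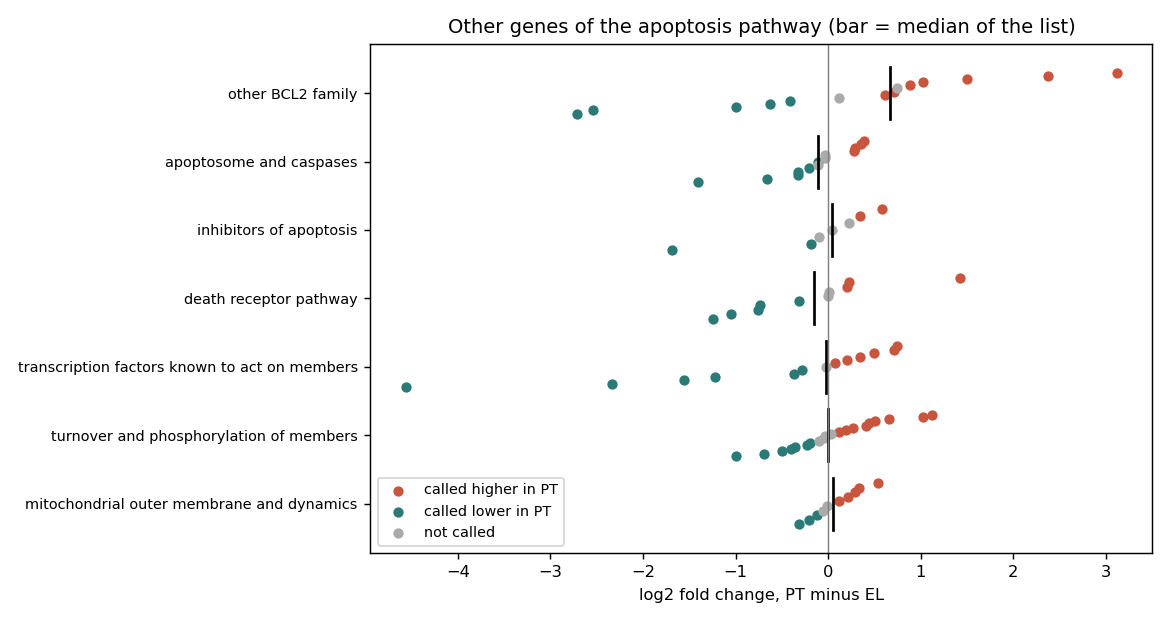
Log2 fold change, PT minus EL, of the tested genes of 7 apoptosis lists (points, coloured by the edgeR call; black bars are list medians). The medians lie between -0.16 (death receptor pathway) and 0.66 (other BCL2 family), and with TMM factors every list holds genes called in both directions; with library totals no gene of the mitochondrial list was called lower.

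For the survival genes the tested genes with the most similar pattern over the 6 libraries were sought among 9655 other genes with a mean of at least 10 CPM, by Pearson correlation of log2 CPM, as a description. Sort1 and Zbtb10 came first for Bcl2 (r = 0.9999 for each), Cnn2 and Pygb for Bcl2l1 (1.0 and 0.9999), and Iqcb1 and Ddx6 for Mcl1 (0.9999 and 0.9997). With 2 well separated groups such values are common, and 3064 genes exceeded r = 0.95 with Bcl2, 3071 with Bcl2l1 and 2650 with Mcl1.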

How the data were processed

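RNA of 3 EL and 3 PT sphere libraries was sequenced on an Illumina MiSeq, per the labels' protocols. The submitters' processing notes name STAR, featureCounts, DESeq2 and the builds mm10 and hg19; the strand setting and all versions and parameters were not given in the sources used here. Raw, unnormalised whole-number counts for each RefSeq transcript were deposited by the authors. A read appears to be counted for each transcript of a gene it overlaps. Transcripts absent from the incomplete table of EL replicate 1 (5404) were left out, and 1 transcript per symbol was kept, which for Bcl2l11 set aside 2 slightly higher transcripts.

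Counts were tested with edgeR 4.0.16 (R 4.3.3), using filterByExpr, TMM factors, the quasi-likelihood test, glmTreat for the 2-fold minimum and Benjamini-Hochberg adjustment over 13844 genes. CPM use the summed counts of the kept transcripts, scaled by TMM (43278382 to 51117359 counts). Lengths and exon overlaps came from GENCODE M21 (GRCm38), gene positions and promoters from RefSeq GRCm38.p6. On simulated counts, 47 of 50 genes changed 1.5-fold and all 50 changed 2-fold were called, with 10 false calls among 13766 tested genes. Few genes were changed there, unlike in these data, so the simulation does not bear on the choice of scaling. The members and lists were chosen with earlier results of these data known. Named pathway genes are the 2 highest and 2 lowest called fold changes per list among genes without overlap between groups and averaging at least 20 counts (some are not reported here), and others are named as chosen after their values were seen or complete a set already named. Alternatives were other scaling factors, DESeq2 1.42.0, limma-voom 3.58.1, other count filters, summed transcripts, a replicate block, each library left out and, chosen after seeing the data, the 5 complete libraries alone.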

Additional observations from a re-analysis of the deposited data

How the results depend on the processing

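Over 16 alternatives, 158 of 160 values of the 10 members kept their direction and side of the threshold. Both exceptions came with library totals alone, which shifted the median log2 fold change of all genes by 0.25: Bak1 went to 0.09 and Bad to -0.04. Under that scaling 1 member instead of 3 was called lower, and 5 instead of 3 passed the 2-fold minimum. Among the pathway genes named as the highest and lowest of their list, library totals took Birc3 to 0.07, Vdac2 to 0.03 and Vdac1 to -0.06 (the first 2 reversed, all not called). Genes named outside that rule were not followed over all alternatives. Of these, Akt1 was no longer called lower with library totals. With 1 library left out, Pmaip1 ranged from -3.61 to -3.53, Bcl2l1 from 1.39 to 1.45 and Bcl2 from 1.35 to 1.41, and the count of members called higher was 7 each time. With the replicate number as a block, 7 members were again called higher and 3 lower, and Bak1 was at -0.15. Deviations of same-numbered libraries correlated at 0.12, 0.096 and 0.082, and each library correlated best with its own number. The labels do not say what a replicate number marks, so the main test did not treat the numbers as pairs. Whether same-numbered libraries share a source was not tested. Depth was not limiting for the members, whose lowest sum was 1117 counts over the 3 PT libraries (Pmaip1). It limited Trp73, with 6 counts over the PT libraries, and Fasl.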

Other observations

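The annotated transcripts of a member stood in similar proportions in both groups. The shorter Bcl2 transcript (NM_177410) held 30.1%, 31.8% and 31.9% of the counts of the longer one (NM_009741) in EL replicates 1 to 3 and 30.2%, 30.2% and 29.4% in PT replicates 1 to 3. A Bcl2l1 transcript with lower counts (NM_001289739) held 42.3% to 43.7% of the counts of the chosen one in EL and 41.6% to 42.2% in PT. For Bcl2l11, NM_001284410 and NM_001291016 held 13.0% to 14.1% and 17.0% to 18.3% in EL and 13.0% to 13.9% and 16.5% to 17.9% in PT, and the second Bad transcript held 86.6% to 87.3% and 87.5% to 87.8%. Such counts share reads between transcripts of a gene, so they do not measure isoforms apart.

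Genes of the mitochondrial outer membrane and of mitochondrial fusion and fission, where BCL2 family proteins act, changed little. Of 10 tested, 5 were called higher and 3 lower, or 8 and 0 with library totals, and none with TMM factors passed the 2-fold minimum, with a median log2 fold change of 0.06. Over all tested genes 80.7% were called and 24.6% passed that minimum. The median absolute log2 fold change was 0.21 for the list and 0.45 over all tested genes. The fusion genes Mfn1 and Mfn2 had log2 FC values of 0.54 (± 0.03 SE) and 0.33 (± 0.03 SE). The channel gene Vdac2, whose protein holds BAK at the membrane, was at 306, 298 and 308 CPM in EL and 260, 264 and 263 in PT (log2 fold change -0.21 with TMM factors and 0.03 with library totals), and Vdac1 was at -0.31 and -0.06.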
